A study of Mus musculus with 4 samples.

Results

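Clusters of neighbouring binding regions were collected from a chromatin immunoprecipitation of the thyroid hormone receptor TRα1 in mouse striatum. Peaks on chromosomes 1 to 19 were chained whenever their summits lay at most 10 kb apart, and every chain of at least 3 summits was kept as a cluster. The first 3100000 bp of chromosome 9 were left out, which removed 12 peaks. Of 7484 peaks, 7400 entered the chaining, and 366 of these (4.95%) fell into 112 clusters. A further 1054 peaks formed 527 pairs, and 5980 single peaks had no other summit within 10 kb. The rule used positions only, so the heights of the peaks and their genes are measurements it did not use.

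The tissue was striatum of mice carrying Gad2Cre together with ThraGS, an allele for a GS-tagged TRα1. Gad2-Cre is a driver active in GABAergic neurons, which form most of the striatum beside glia and vessels. The series has 3 IP fractions taken on IgG-coated magnetic beads and 1 input taken without antibody, and the labels give no age, treatment or number of animals. The 4 libraries have 1 peak list with no value per library, so the spread among fractions is not known here, and an IP from animals without the tag was not analysed here.

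Thyroid hormone receptors are nuclear receptors that sit on DNA with or without their ligand T3, usually as heterodimers with retinoid X receptors. They recognise paired copies of a short element close to AGGTCA, and direct repeats spaced by 4 bases (DR4) are their classical site. Genes under strong hormone control can have several binding regions within a few kilobases. In striatum the hormone is known for its part in the maturation of projection neurons and interneurons.

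Sequences from RefSeq (GRCm38.p6) show 4 cluster summits that fell just before a start site, chosen because they carry the strongest clustered summit inside a promoter window (Lingo3), the strongest one before a noncoding start other than that of a predicted gene (Snhg20), a summit in a cluster that spans a microRNA gene (Tlcd2) and a summit shared by divergent genes (Brd2 and H2-DMa). Each is the 250 bases before the start, 5′ to 3′ on the gene's strand, and capitals mark the 21 bases centred on the summit. The windows are chr10:80844040-80844289 on the minus strand for Lingo3, chr11:117076533-117076782 on the plus strand for Snhg20, chr11:75467800-75468049 on the plus strand for Tlcd2 and chr17:34122608-34122857 on the minus strand for Brd2.
Lingo3: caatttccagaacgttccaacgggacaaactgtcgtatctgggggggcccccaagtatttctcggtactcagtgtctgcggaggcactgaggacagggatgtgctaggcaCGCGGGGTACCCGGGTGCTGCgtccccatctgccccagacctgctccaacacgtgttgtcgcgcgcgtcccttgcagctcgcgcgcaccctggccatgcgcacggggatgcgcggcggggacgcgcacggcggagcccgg
Snhg20: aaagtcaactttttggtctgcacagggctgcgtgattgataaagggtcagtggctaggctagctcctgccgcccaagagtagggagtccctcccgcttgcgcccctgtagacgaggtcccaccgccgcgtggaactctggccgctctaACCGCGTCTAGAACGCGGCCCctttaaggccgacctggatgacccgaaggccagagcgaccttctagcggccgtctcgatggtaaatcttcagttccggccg
Tlcd2: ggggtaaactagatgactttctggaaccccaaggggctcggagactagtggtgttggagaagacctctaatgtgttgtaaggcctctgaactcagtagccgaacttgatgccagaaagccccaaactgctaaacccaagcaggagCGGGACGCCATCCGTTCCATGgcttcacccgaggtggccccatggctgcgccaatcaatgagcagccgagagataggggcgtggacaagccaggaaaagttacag
Brd2: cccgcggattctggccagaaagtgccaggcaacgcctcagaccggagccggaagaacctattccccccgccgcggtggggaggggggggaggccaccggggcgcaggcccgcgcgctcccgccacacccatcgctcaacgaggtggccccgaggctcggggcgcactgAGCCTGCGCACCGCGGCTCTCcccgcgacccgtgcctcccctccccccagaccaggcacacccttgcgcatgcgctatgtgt
The Lingo3 summit lay 130 bp before the start with a fold enrichment of 29.6, the Snhg20 summit 92 bp before it at 13.7, the Tlcd2 summit 95 bp before it at 11.1 and the Brd2 summit 72 bp before it at 6.20. The same Brd2 summit lay 153 bp before the start of H2-DMa, which is read in the opposite direction.

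Promoter windows of 300 bases, 250 before and 50 after the start, were searched on both strands. A clustered summit lay inside 10 coding windows, against 386 for single peaks, out of 20063. These are counts of windows, and those of Brd2 and H2-DMa share 1 summit. Start sites could be measured for 357 clustered and 5798 single peaks. Per peak, such windows were therefore fewer for clustered than for single peaks. The element AGGTCA was in 14.7% of all coding windows, in 18.9% of those with a single summit and in 1 of the 10 with a clustered summit, that of Mrpl12, a mitochondrial ribosomal protein. The DR4 arrangement AGGNCANNNNAGGNCA was in 0.179% of all windows, in 1.04% of those with a single summit and in 0 of the 10. The E-box CACGTG was in 7.89% of all windows, 13.5% of those with a single summit and 2 of the 10, those of Lingo3 and Trmt61a. In the printed Lingo3 sequence the E-box begins at base -91 from the start. With 10 windows these shares cannot be told apart: the exact 95% interval for 0 of 10 reaches 30.8%. The windows with a clustered summit had a median GC content of 60.5% and 22.5 CpG, close to the 62% and 22 of windows with a single summit, and above the 57% and 14 of all coding windows. Peaks away from starts were not searched, since no genome sequence was used here.

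Clusters of 3 made up most of the collection. There were 92 clusters of 3 summits, 14 of 4, 4 of 5, 1 of 6 and 1 of 8, so 276 of the 366 peaks sat in clusters of 3. Spans from first to last summit ran from 1043 to 30271 bp, with a median of 8270 bp. The 254 gaps between neighbours ran from 466 to 9733 bp with a median of 3702 bp, and 31.9% of them were at most 2 kb. Pairs had a median gap of 3776 bp and 29.2% at most 2 kb. The next summit outside a cluster lay 10473 to 587850 bp away, with a median of 43294 bp.

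**Figure D1:**
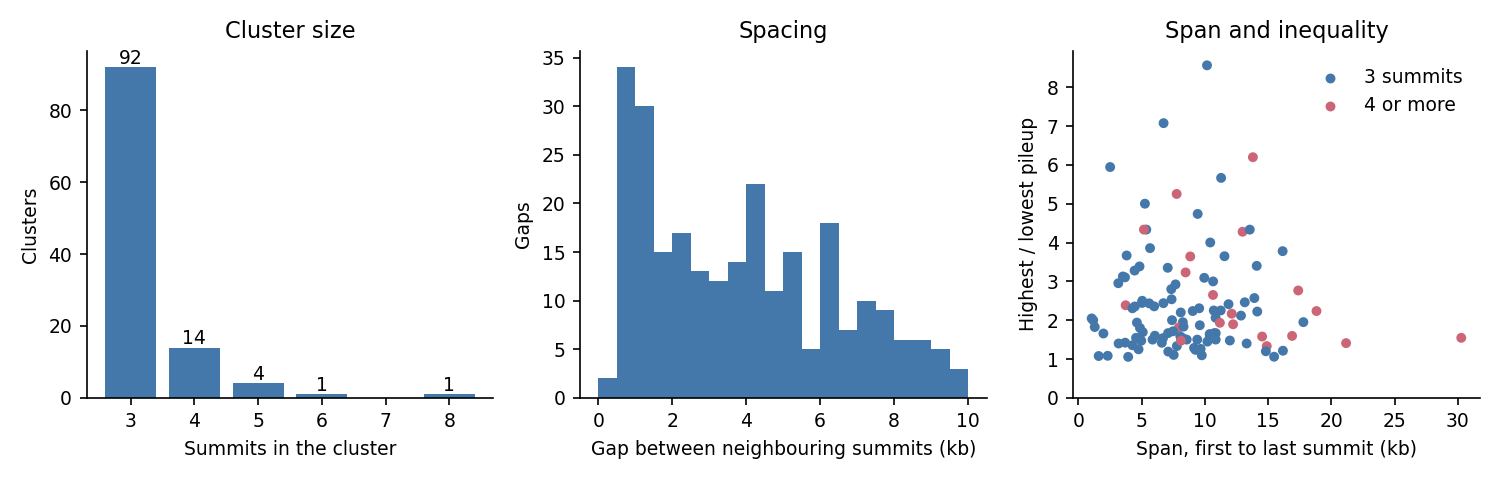
The 112 clusters by number of summits (left), the 254 gaps between neighbouring summits in kb (middle), and the ratio of highest to lowest pileup against span in kb, 1 point per cluster (right). Most clusters hold 3 summits, gaps run up to the 10 kb limit, and ratios run from 1.06 to 8.56.

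The limit of 10 kb cut through a continuous range of gaps. Gaps just inside it included 9531 bp in a cluster outside genes, 34383 bp from Gramd1b, the nearest coding gene, and 9733 bp near Camk2n1. The narrowest gaps outside were 10038, 10046 and 10063 bp. Only 8 clusters held a gap of 9 to 10 kb, and a limit of 11 kb would have made 14 more clusters.

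Taken over all peaks kept, the heights of clustered and single peaks were close, and no difference was detectable in this list. Near gene ends alone the median folds lay further apart, as given under the alternatives. The pileup, the authors' scaled fragment height at the summit, had a median of 21.6 in clustered peaks (95% interval 19.72 to 22.54) and 21.6 in single peaks (21.6 to 22.54). The fold enrichment, the authors' ratio of that height to local background, had a median of 6.85 (6.35 to 7.17) against 6.91 (6.85 to 7.01). Of the clustered peaks, 82 had a fold of 10 or more, or 22.4% (18.2 to 27.0), against 23.6% of single peaks and 24% of all autosomal peaks kept. A fold of 20 or more was seen in 14 clustered peaks, or 3.83%, against 3.41% of single peaks and 3.58% of all. The intervals overlapped in each of these comparisons, and they cover counting error within 1 list only. Peaks of 1 cluster share a locus and are not independent of each other.

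**Figure D2:**
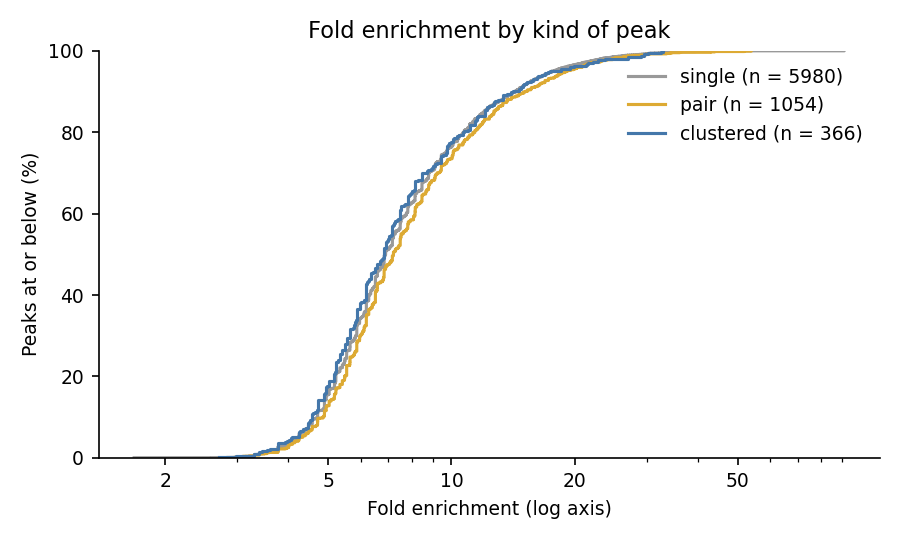
Cumulative share of peaks, in percent, at or below each fold enrichment (log axis), for 5980 single, 1054 paired and 366 clustered peaks. The lines run close together, with medians of 6.91, 7.22 and 6.85.

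The highest folds of the list belonged to single and paired peaks, and the clustered share of the top was close to the clustered share of all peaks. Clustered folds ran from 2.71 to 32.86, while single peaks reached 91.04 and paired peaks 53.98. The best clustered peak, near Klf9, ranked 38 in the list, and 7 of the 100 highest folds belonged to clusters, beside 4.95% of all peaks. In 55 clusters no peak reached a fold of 10, 38 had 1 such peak, 14 had 2, 4 had 3 and 1 had 4.

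Within a cluster the summits differed in height. The strongest was a median 2.00 times as high as the weakest, with a range of 1.06 to 8.56, and 1.40 times as high as the next strongest. It carried a median of 43.1% of the summed pileup. In the 92 clusters of 3 the strongest was the middle summit in 30. Heights of neighbours inside clusters were weakly related, with a Spearman rho of 0.155 over 254 neighbouring summits, 0.0874 without the 8-summit cluster, and -0.0199 over the 527 pairs.

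Clusters stood in more gene-dense surroundings than single peaks. The window of 100 kb on each side met a median of 4 coding genes for clustered peaks (4 to 5) and 2 for single peaks. The median distance to the nearest end of a coding gene was 6702 bp (5250 to 10101) against 19713 bp (18379 to 21068). Summits of other chains within 500 kb had a median of 7 for clustered, 6 for paired and 4 for single peaks. The rule selected on the spacing of summits, so this count is not a separate finding.

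At the gene end itself, with both ends of a gene pooled, no difference was detectable, and the shares parted further out. Within 1 kb of a coding gene end lay 66 clustered peaks, or 18.03% (14.2 to 22.4), against 17.4% (16.5 to 18.4) of single peaks and 17.2% of all autosomal peaks kept. Between 1 and 5 kb lay 24.9% (20.5 to 29.6) of clustered peaks, 17.2% of paired peaks and 12.8% (11.9 to 13.6) of single peaks. Taking only the first summit of each cluster, so that each locus counts once, the share was 23.2% (15.8 to 32.1). Over 100 kb from any end lay 10.1% (7.22 to 13.7) of clustered and 19.8% (18.8 to 20.9) of single peaks. Inside a coding gene lay 230 clustered peaks, or 62.8% (57.7 to 67.8), against 58.7% (57.4 to 59.9) of single peaks and 59.8% of all.

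**Figure D3:**
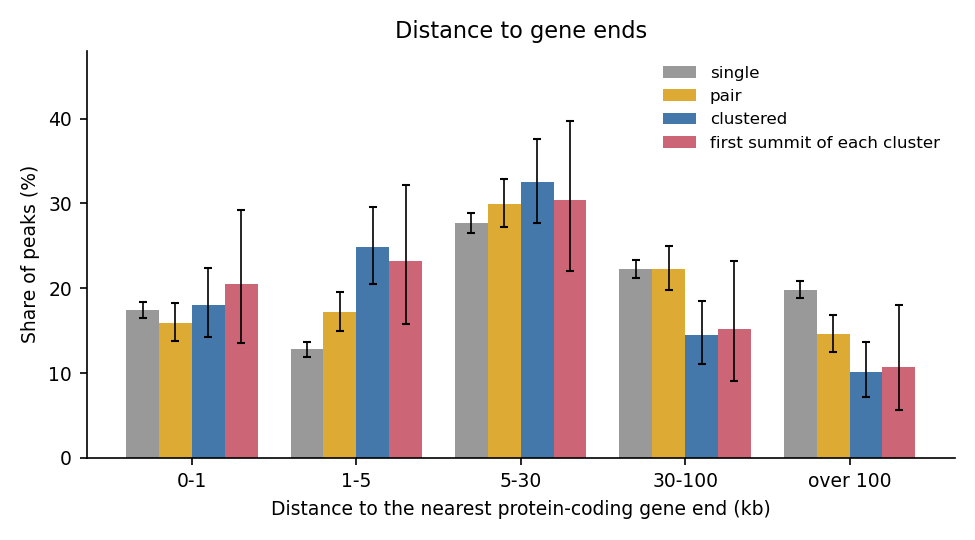
Share of peaks by distance to the nearest protein-coding gene end, in percent, with exact 95% intervals. Clustered peaks exceed single peaks between 1 and 5 kb (24.9% against 12.8%) and fall below them over 100 kb (10.1% against 19.8%).

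Seen as whole clusters, 42 of 112 had at least 1 summit within 1 kb of a coding gene end. With no summit that near an end, 40 lay inside 1 coding gene, 7 partly inside a coding gene and 23 outside coding genes. These ends are those of the whole annotated gene, and a start site can lie inside it. In the Gng7 cluster, for example, 1 summit lay 129 bp from such a start. Some of the 23 clusters outside coding genes met noncoding genes, such as Meg3 described below. The highest fold per cluster had a median of 9.92 at coding gene ends, 10.2 inside coding genes and 10.4 outside them. Of these 42 clusters, 23 had a single summit near an end, and it was the strongest of its cluster in 7 and the weakest in 8. The other 19 had 2 or more summits near an end. The 45 genes that held a whole cluster had a median length of 76.1 kb, near the 67.9 kb of the 2672 genes that held single peaks, and above the 17.5 kb of all autosomal coding genes.

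Chromosome 11 held most clusters, 13, with 8.0% of its peaks clustered. Chromosome 4 followed with 11 clusters and 8.10% of peaks. Chromosomes 3, 13, 14 and 16 held 2 clusters each. Across the 19 autosomes, clusters per 10 Mb went with peaks per Mb (Pearson r = 0.771, Spearman rho = 0.665) more closely than with coding genes per Mb (r = 0.442, rho = 0.4), given as a description since these measures share the same peaks and chromosomes. Chromosome 12 had 9 clusters at 5.66 coding genes per Mb, while chromosome 7 had 5 clusters at 13.97.

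**Figure D4:**
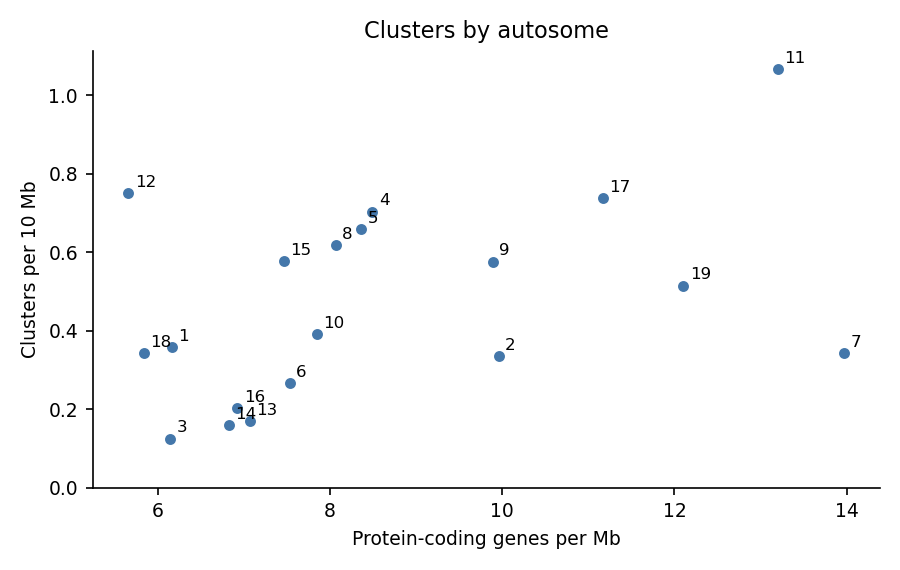
Clusters per 10 Mb against protein-coding genes per Mb, 1 numbered point for each of the 19 autosomes. Chromosome 11 is highest with 1.07 clusters per 10 Mb and chromosome 3 lowest with 0.125.

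The cluster with the highest fold lay before Klf9, a Krüppel-like transcription factor induced by thyroid hormone in brain. Its 3 summits on chromosome 19 (23134948 to 23137453) lay 6278, 5181 and 3773 bp from the gene, with pileups of 46.01, 100.47 and 16.9 and folds of 15.8, 32.9 and 6.20. The middle summit stood far above its neighbours. Another Klf9 summit, with a fold of 7.52, lay 10810 bp further out and so just missed the chain.

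Apart from a cluster of 8 described further on, the cluster with the most summits lay at a gene of striatal projection neurons. Gng7, which encodes a G protein gamma subunit coupled to dopamine receptors, had 6 summits inside the gene on chromosome 10 (80985750 to 81003128), with folds of 7.17, 8.15, 13.4, 5.82, 12.05 and 15.6. Of the 10 summits within 30 kb of a Gng7 end, 6 were clustered. Ppp1r1b, which encodes the dopamine-regulated phosphatase inhibitor DARPP-32, had 5 summits on chromosome 11 (98346110 to 98354581), with folds of 10.1, 6.20, 5.87, 3.77 and 4.05. The strongest of these lay outside the gene, 2296 bp from its end, and the next one 45 bp from that end. Bcl11b, a zinc finger factor of medium spiny neurons, had 3 summits, at folds of 8.15, 4.09 and 17.2. The weaker first summit was 43 bp from the gene end and the strongest 13504 bp outside. Pde10a, the cyclic nucleotide phosphodiesterase of the same neurons, had 3 summits deep inside the gene, at folds of 29.6, 12.8 and 6.28, the nearest 133809 bp from an end. Rasd2, which encodes the GTPase Rhes, had 3 weaker summits at 6.85, 6.59 and 7.52.

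Of the list of 34 striatal projection neuron genes, 4 had a clustered summit within 30 kb of an end: Gng7, Ppp1r1b, Bcl11b and Rasd2. This is 11.8% (3.30 to 27.5). Pde10a is on the same list, but its cluster lies over 30 kb from either end. The background was 236 of 20665 autosomal coding genes, or 1.14%. Of 39 autosomal thyroid hormone targets in brain, 4 did, or 10.3% (2.87 to 24.2): Klf9, Nrgn, Rasd2 and Sema7a. Both lists were also rich in genes with any peak within 30 kb of an end. Such a peak was found for 24 of the 34 striatal genes and 20 of the 39 hormone targets. Among all autosomal coding genes 6521 had one, or 31.6%. By the gene span with 5 kb added at each side, which 0.634% of coding genes reached, the striatal list had 5, with Pde10a, and the hormone target list 3, without Nrgn. Both lists were written with earlier results of these data known, and the counts are a description. Nrgn, the calmodulin-binding protein neurogranin, had summits 14877, 15443 and 20472 bp from the gene at folds of 17.4, 9.72 and 9.04. Sema7a, a membrane-anchored semaphorin, had folds of 4.90, 6.71 and 4.71.

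The remaining lists had 0 to 2 members with a cluster each. In these lists of 17 to 30 genes, 1 member came to 3.33% to 5.0%. The exact intervals for counts of 0 and 1 all held the 1.14% background. The interval for the 2 of 19 glutamatergic markers, 1.30% to 33.1%, lay above it, as did those of the striatal and hormone target lists. For any peak within 30 kb of an end, the background was 6521 coding genes, or 31.6%. Of 24 circadian clock genes only Npas2, a partner of BMAL1, had one, with folds of 5.87, 7.22 and 5.22, although 18 had some peak. The 29 voltage-gated channel genes had 1, Kcnq5, a potassium channel, at 5.55, 16.6 and 6.59. Among 30 immediate early and Krüppel-like factors Klf9 was the only one. The 17 receptors and coregulators, 20 genes of GABA synthesis and receptors and 30 interneuron genes had 0, although 10, 12 and 5 of them had a peak. Markers of other cells gave 2 of 19 for glutamatergic neurons (Camk2a, and Neurod2 through the Ppp1r1b cluster), 1 of 20 for endothelial and mural cells (Esam, through the Nrgn cluster), and 0 for astrocytes (18), oligodendrocytes (19), microglia (17) and muscle and liver genes (27). By the gene span with 5 kb added at each side, the astrocyte list had 1, Slc4a4, whose clusters lie inside the gene over 30 kb from an end. By the same span the glutamatergic list had 1 and the endothelial and mural list 0.

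Other genes of hormone response, clock and striatal signalling had peaks without a cluster. Hr, the hairless corepressor, had a pair at folds of 34.2 and 7.50 and a single peak at 9.41. Rgs9, a striatal regulator of G protein signalling, had a pair at 36.1 and 18.6. The receptor gene Thra had 4 peaks at 14.4, 10.4, 9.78 and 12.2, with no more than 2 of them chained, and Nr1d1, which overlaps it, shared them. Thrb, Dio3 and Drd1 had single peaks only, with highest folds of 12.5, 11.6 and 6.79, and Gad2 had 1 peak at 18.8. The clock genes Cry2 and Per1 had at most pairs, with highest folds of 11.8 and 8.47.

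**Figure D5:**
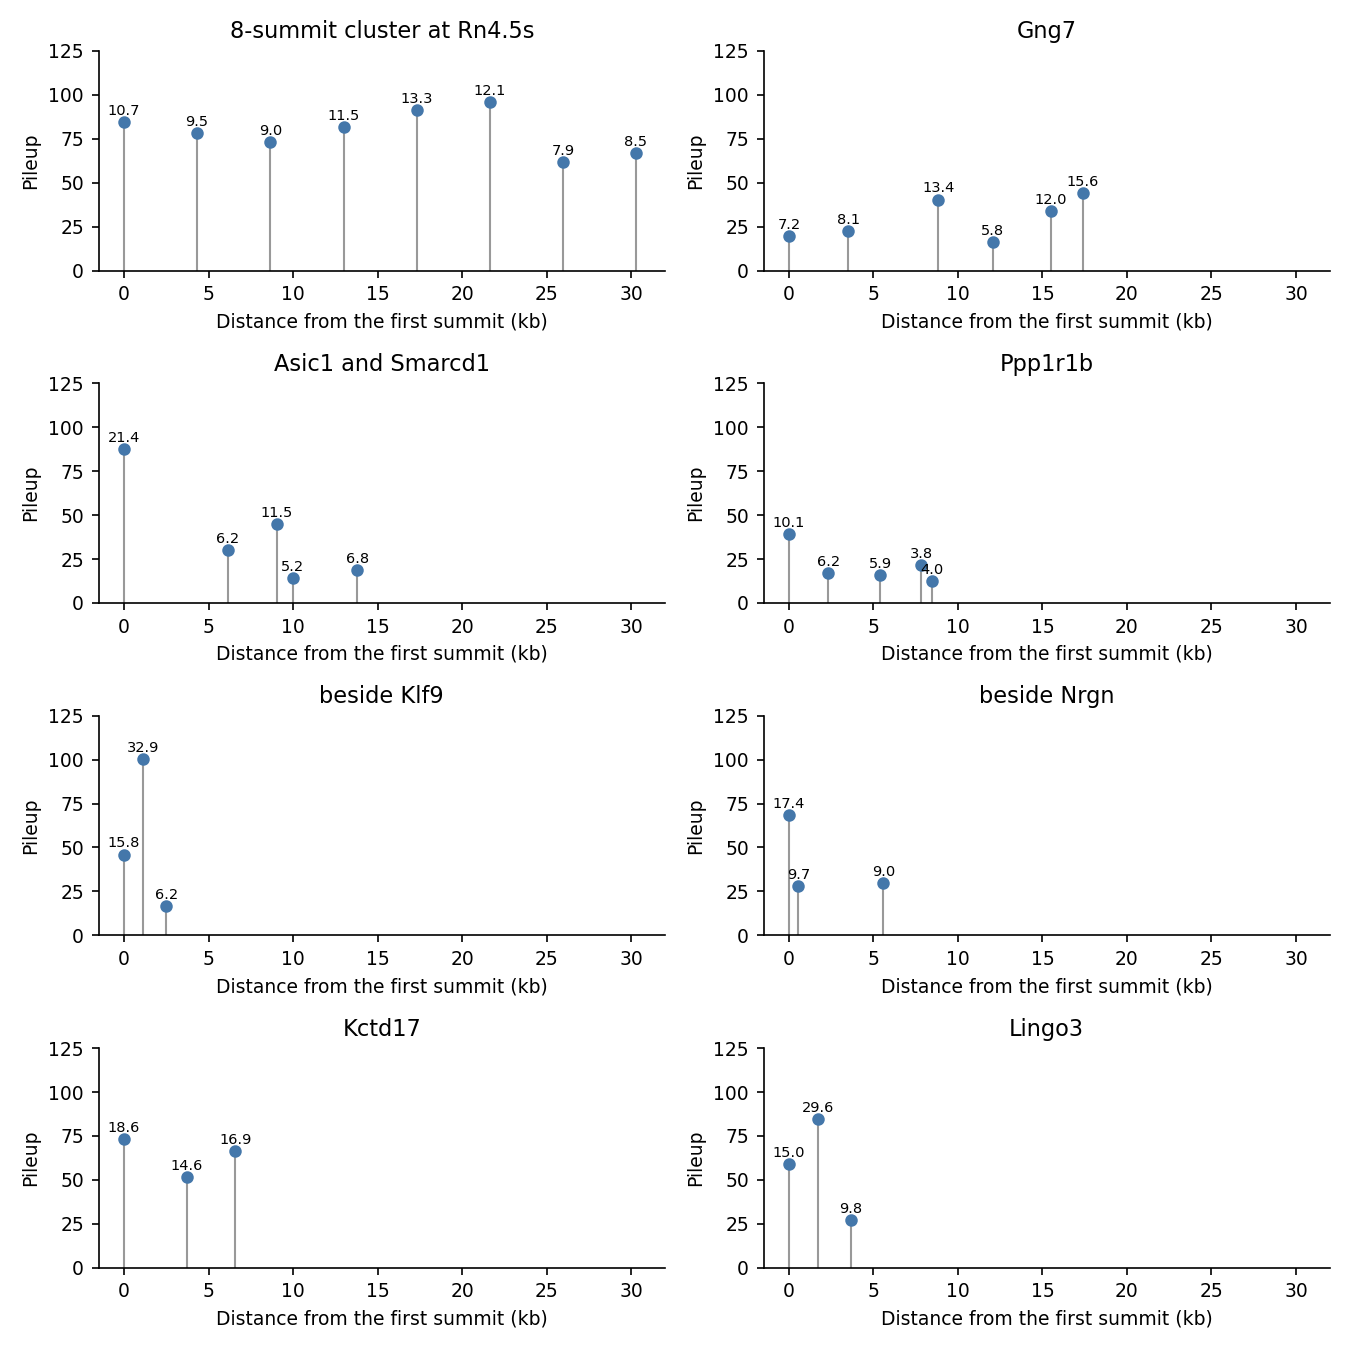
Summits of 8 clusters, placed by distance in kb from the first summit, with the height as pileup and the fold enrichment printed above each. At Klf9 1 summit stands above the others (pileup 100.47 beside 46.01 and 16.9), and the 8 summits at Rn4.5s are evenly spaced.

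Several of the clusters with the highest folds were led by 1 summit. Dmtn, an actin-bundling protein, had pileups of 15.02, 22.54 and 128.64, a ratio of 8.56 between strongest and weakest, all inside the gene. Near Rasgrp1, a Ras activator, the pileups were 20.66, 12.21 and 86.39, at least 38756 bp from the gene. Anks1 had 15.02, 14.09 and 79.82. The Asic1 and Smarcd1 cluster, at an acid-sensing channel and a chromatin remodelling subunit, had 5 summits with pileups of 87.33, 30.05, 45.07, 14.09 and 18.78. Inf2, an actin-regulating formin, led with a fold of 29.0 beside 8 and 8.47. Abcc12, Insyn1, S100pbp, Sorcs2 and D5Ertd579e had highest folds of 23.7, 22.8, 22.8, 22.1 and 21.6, and the cluster near Mcm5 had 19.97.

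Summits were closer in height elsewhere. Kctd17 had pileups of 73.24, 51.65 and 66.67, with folds of 18.6, 14.6 and 16.9, and its first summit lay 13 bp past the start of the lncRNA Gm36644. Slc4a4, a sodium bicarbonate cotransporter, had 4 summits inside the gene at 39.44, 62.91, 46.01 and 54.46, and a second cluster of 3 further along at folds of 5.88, 6.02 and 5.86. The 5 summits near Camk2n1 had folds of 5.02, 6.99, 10.4, 7.82 and 7.01, and those of Cx3cl1, the chemokine fractalkine, 7.06, 3.77, 6.96, 6.85 and 7.50. The narrowest cluster, at Zcchc7, placed folds of 11.4, 6.27 and 7.48 within 1043 bp. Its ratio of highest to lowest pileup was 2.05, near the median of 2.00 over all clusters, so it was not especially even.

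Some clusters lay on repeated or small RNA genes. The widest and longest, 8 summits on chromosome 6 (47655041 to 47685312), began inside Rn4.5s, annotated as rRNA, and crossed 6 predicted genes. Its first summit lay 53 bp from the nearer end of Rn4.5s. Its gaps were all 4289 to 4341 bp (mean 4324 ± 16.8, SD, n = 7), a coefficient of variation of 0.389% against 33.7% for the next most even cluster of at least 4. Its pileups ran from 61.97 to 95.78 over a background of 5.90 to 7.27, while the median background of clustered peaks was 2.00. The sources used here do not say how reads from near-identical copies were placed, so these heights are uncertain.

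A cluster near Ctc1 had summits at 3 tRNA genes, with folds of 4.73, 5.27 and 5.74. The first lay 3 bp outside n-TIaat5. The others lay inside n-TSaga4 and n-TWcca7, 16 and 31 bp from the nearer end. Within 1 kb of a tRNA gene lay 7 clustered peaks, or 1.91% (0.772 to 3.90). Single peaks had 0.468% (0.311 to 0.676), and all autosomal peaks kept 0.581%. Taking only the first summit of each cluster, the share was 1.79% (0.217 to 6.30), an interval that overlapped the one of single peaks. The 7 clustered peaks came from 3 clusters. Besides the one near Ctc1, these lay near Osbp (folds of 7.29, 4.57 and 5.97) and at Mrpl58 and Atp5h. In the last, the middle summit lay 135 bp from n-TRcct5. The histone genes H2ac19, H2ac18 and H3c14, near-identical to others of their family, had 1 summit each, at folds of 7.27, 10.1 and 5.03.

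From first to last summit, clusters spanned the microRNA genes Mir22, Mir7653 and Mir6516. The last summit of another cluster lay just before Mir770, while the peaks of that cluster reached 109563917, past the Mir770 hairpin. The mature sequences at Mir770, the nearest of all to a clustered summit, and at Mir22 are given with seeds (bases 2 to 8) in capitals.
miR-770-5p: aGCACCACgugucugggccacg
miR-770-3p: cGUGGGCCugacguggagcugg
miR-22-5p: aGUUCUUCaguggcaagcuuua
miR-22-3p: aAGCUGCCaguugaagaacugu
The seeds differ between all 4. A cluster inside the lncRNA gene Meg3, an imprinted transcript, had Rtl1 as its nearest coding gene, and its last summit lay 8 bp from the Mir770 hairpin (chr12:109563692-109563785, plus strand), with folds of 5.50, 7.85 and 4.72 along the cluster. The nearest summit to the Mir22 hairpin (chr11:75463716-75463810, plus strand) lay 3116 bp away at a fold of 5.49, within the Tlcd2 cluster.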

How the data were processed

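Chromatin from 1 input and 3 IP fractions of striatum was compared by the authors in 1 deposited peak list. The submitters' processing notes name MACS2 2.1.1.20160309.0 and Bowtie2 2.3.4.2. The sources used here do not say whether fractions were pooled. The deposited pileup is a signal (scaled coverage), the fold enrichment a ratio, and significance is deposited as −log10 of the p-value and of the q-value, per the file headers. Of 7653 peak numbers, 169 were absent from the list of 7484 peaks. None of these fell inside a cluster, and 4 clusters were flanked by one. Chaining and distances were computed with Python 3.11.15, pandas 2.3.3 and scipy 1.17.1 and tested on simulated data. Genes and sequences came from RefSeq GRCm38.p6. Shares carry exact Clopper-Pearson 95% intervals and medians exact order-statistic intervals, which cover counting error only. Read totals per library were not used, and with no value per library no p was computed.

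Distances were taken to gene ends. Distances to start sites were computed first and then set aside as the main measure, because promoter windows cover 16437 of 20665 autosomal coding genes and lack several genes named here, such as Ppp1r1b. The bins of distance, and the start-site version given under the alternatives, were chosen after values were seen. Members, gene lists and tests were chosen with earlier results of these data known. Named genes are those of clusters of at least 6 summits, the 15 highest folds and 10 highest summed pileups, up to 4 members per list, the narrowest and widest clusters, the 5 most uneven ones, and 16 genes of interest. Gramd1b, Tlcd2, Snhg20, Brd2, H2-DMa, Mrpl12, Trmt61a, Cx3cl1, Camk2n1, Meg3, Rtl1, Ctc1, Osbp, Mrpl58, Atp5h, the histone genes and the microRNAs were chosen after their values were seen. A gap near the 10 kb limit is among results not reported here.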

Additional observations from a re-analysis of the deposited data

How the results depend on the processing

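Of 117 alternative values over 18 settings, 83 stayed within the main value's interval, or within 1.5 times a count, and 34 moved. Cluster counts followed the rule. With gaps of 5 kb there were 179 peaks in 55 clusters at 106 genes, with 20 kb 767 in 223 at 435, and with at least 4 summits 90 in 20 at 50. At a −log10 q of at least 10 there were 78 peaks in 23 clusters at 63 genes. Genes with a clustered peak numbered 101 in a window of 5 kb and 131 for gene spans widened by 5 kb.

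Heights and gene-end shares moved as follows. Clusters of at least 4 summits had a median pileup of 23.01, and 13.3% of their peaks were within 1 kb of a gene end. At the stricter q the medians were 33.8 and 9.76 (pileup and fold) for clustered and 30.05 and 9.45 for single peaks, with 14.1% of clustered peaks at gene ends. Near gene ends only, the median fold was 6.23 (5.87 to 6.85) for clustered and 7.15 (6.85 to 7.32) for single peaks, intervals that met only at 6.85. At 500 bp the gene-end shares were 12.8% clustered and 12.9% single, at 2 kb 25.4% and 22.0%, and for the ends of all genes 26.5% and 22.2%. The share inside a gene was 68.0% for clustered peaks with summits within 1 kb merged, and 54.5% for single peaks with no other within 100 kb.

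Start sites in place of gene ends, an alternative chosen after seeing the data, covered 357 clustered and 5798 single peaks, since no start windows were used on chromosome 18. They gave 20.7% of these clustered and 6.43% of these single peaks between 1 and 5 kb, and 35.9% and 55.1% over 30 kb, where gene ends gave 24.6% and 42.1%. Clustered peaks were therefore more often at 1 to 5 kb, and less often beyond 30 kb, under both measures. Without the 8-summit cluster, also chosen after seeing the data, 23.2% lay between 1 and 5 kb. No paired analysis was possible because the list carries no value per fraction.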

Other observations

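Peaks outside the clustering were few. The X chromosome held 69 peaks and the Y chromosome 3, with no chain longer than 2 on either. The 12 peaks at the start of chromosome 9 formed 1 chain of 12 summits.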
